A study of Oryza sativa with 10 samples.

Results

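The short arm of rice chromosome 9, taken as positions 0 to 1.8 Mb of Chr9, held 741 of the 136841 G-quadruplex capture peaks in the 3 lists used here. A peak was a member when its midpoint lay in that stretch, a rule that used position alone. The members were 301 of 49898 peaks captured with BioCyTASQ in vitro, 190 of 29443 peaks of the list deposited for BioTASQ in vitro, and 250 of 57500 peaks captured with BioTASQ in vivo. They were set against the rest of Chr9 from 3.8 Mb to its last peak, a stretch of 19.2 Mb with 2593, 1499 and 3044 peaks in the same order of lists. The 2 Mb between, around the centromere, belong to neither.

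A G-quadruplex is a stack of guanine quartets that a guanine-rich strand can fold into. The chromosome is strongly asymmetric, with a short arm that is largely heterochromatic by cytology in rice, and the nucleolus organizer of japonica rice, the tandem array of genes for the large ribosomal RNAs, sits at the free end of that arm. Arrays of this kind are guanine-rich and are usually represented in an assembly by a few copies or left out. No annotation of the build of the lists was used here, so the ribosomal label of this end was not checked against genes, and no sequence at the peaks is given.

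All libraries came from 2-week-old seedlings of the japonica cultivar Nipponbare that were fixed for 10 min in 1% formaldehyde. The baits BioCyTASQ and BioTASQ are small molecules with a biotin tag, both TASQs (template-assembled synthetic G-quartets), that are recovered on streptavidin beads. There were 2 libraries for each of the captures BioTASQ in vivo, BioCyTASQ in vitro and BioTASQ in vitro, labelled only vitro or vivo. Controls were 1 library with biotin alone and 1 of input in either set. The labels' protocol for all of them describes incubation of fragmented chromatin with the bait. They carry no genotype other than the cultivar. Another list, deposited for the antibody BG4, held the same 29469 rows as the list deposited for BioTASQ in vitro, with 0 rows differing. Which capture these rows come from cannot be told apart, so the name BG4-or-BioTASQ list is used for them, and they are counted as in vitro by the label of that file. No library was labelled BG4.

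Each capture had 1 list and none per replicate, so no value has an error between seedlings and no difference between the short arm and the rest of Chr9 could be tested over samples. In place of a test, values are given with exact 95% binomial intervals, which cover counting error only and treat neighbouring peaks as independent, and with the spread over windows of the same length. An interval of a difference in shares or medians is that of the short arm less the value of the rest. The error of the rest is left out of it. Windows are places and not replicates. Read depth per library was not analysed here. The strength of a peak is given as its fold enrichment against the control, a value of the authors.

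The lists differed in the direction of the short arm against the rest of Chr9. BioCyTASQ in vitro had 167 peaks per Mb in the short arm and 135 in the rest, a ratio of 1.24 (interval 1.10 to 1.40). The BG4-or-BioTASQ list had 106 peaks per Mb in the short arm and 78.1 in the rest, a ratio of 1.35 (1.16 to 1.57). BioTASQ in vivo had 139 peaks per Mb in the short arm and 159 in the rest, a ratio of 0.876 (0.767 to 0.997). Both in vitro lists were thus denser in the short arm than in the rest, and the in vivo list was sparser, with an interval that ended close to 1. The difference between these directions was not tested. In the 2 Mb between the short arm and the rest there were 141.5, 122 and 146.5 peaks per Mb in the same order of lists. The BG4-or-BioTASQ list was thus denser there than in the short arm.

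Covered length differed between the short arm and the rest in the same directions as the counts. BioCyTASQ in vitro peaks covered 8.78% of the short arm and 7.26% of the rest of Chr9, BG4-or-BioTASQ peaks 3.06% and 2.16%, and BioTASQ in vivo peaks 5.82% and 6.70%. Between the short arm and the rest, the lists covered 8.92%, 3.56% and 6.30% in the same order. Both in vitro lists thus covered more there than in the short arm.

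Windows of 1.8 Mb give a scale for these densities. Of the 10 windows in the rest of Chr9, 9 were below the short arm in BioCyTASQ in vitro (mean 138 ± 20.02 peaks per Mb, SD over windows) and 10 were below it in the BG4-or-BioTASQ list (79.1 ± 11.5). In the BioTASQ in vivo list 9 of the 10 windows were above the short arm (158 ± 12.7). The first 1.8 Mb of the other 11 chromosomes were all below the short arm of Chr9 in both in vitro lists, at 83.3 to 153 BioCyTASQ and 57.2 to 85.6 BG4-or-BioTASQ peaks per Mb. In vivo, 8 of those 11 ends were above it and 3 below. Across the 189 windows of the other chromosomes, 20 were denser than the short arm in BioCyTASQ in vitro, 13 in the BG4-or-BioTASQ list and 150 in the BioTASQ in vivo list. The in vitro densities were thus high for a chromosome end and not outside the range of the genome.

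**Figure D1:**
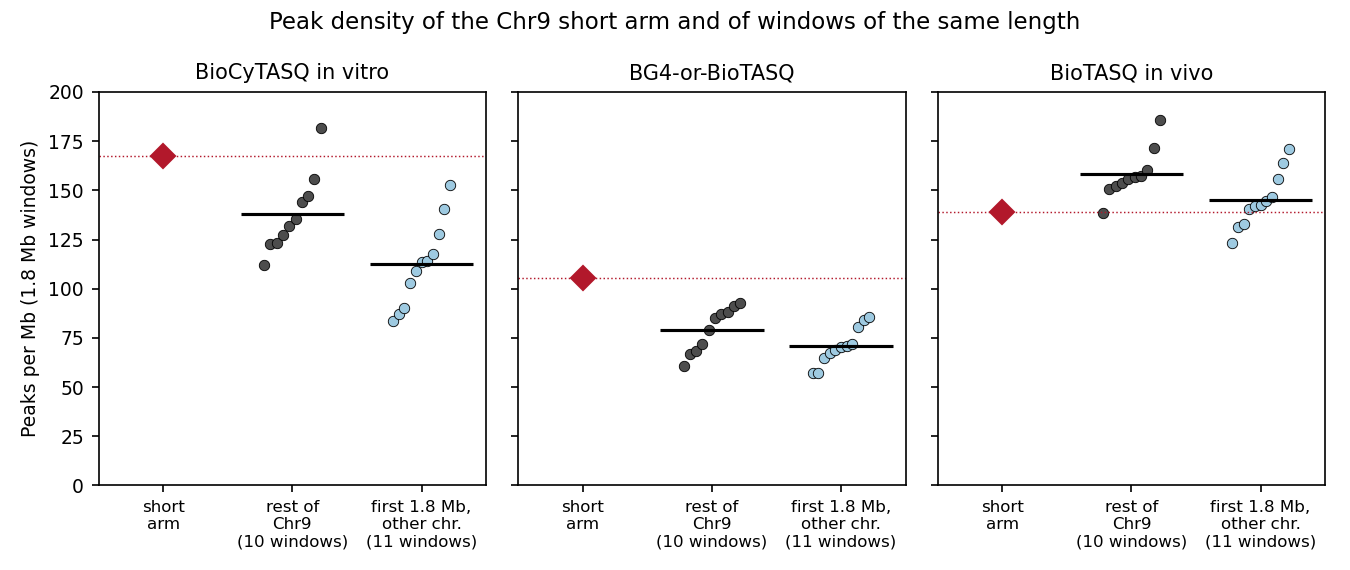
Peaks per Mb (y axis) in the Chr9 short arm (diamond, dotted line), in 10 windows of 1.8 Mb from the rest of Chr9 and in the first 1.8 Mb of the other 11 chromosomes (circles, 1 per window; bars are means), for each list. The short arm lies at 167, 106 and 139 peaks per Mb, above most or all windows in vitro and below 9 of 10 Chr9 windows in vivo.

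Some called peaks had been taken out of the lists before deposit, which could be read from the numbers in the peak names. In the short arm the rows covered 297 of 313 called numbers for BioCyTASQ in vitro, 190 of 190 for the BG4-or-BioTASQ list and 234 of 327 (71.6%) for BioTASQ in vivo. In the rest of Chr9 the in vivo rows covered 65.5% of the called numbers. With every called number counted, the in vivo ratio of the short arm to the rest was 0.814 (0.725 to 0.911). With each number counted once, since 29 short-arm rows shared a number with another row, it was 0.889 (0.774 to 1.02), an interval that includes 1.

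The free end of the arm had no peak in any list. The first peak on Chr9 began at 53725 for BioCyTASQ in vitro, at 53808 for BioTASQ in vivo and at 75246 for the BG4-or-BioTASQ list. No whole called peak was missing ahead of them by number. In each list 0 called numbers were skipped between the last peak of the chromosome before and the first of Chr9. Rows had also been cut after calling, and a piece removed from a numbered peak would leave no skipped number. On the other 11 chromosomes a peak of some list began within the first 0.062 to 4.22 kb. The 53.7 kb without a peak was the 20th longest such stretch of the genome, and 0 stretches in the rest of Chr9 were longer. The next longest in the short arm were 31.0 kb at 1186679 to 1217633, which 7 stretches in the rest of Chr9 exceeded, and 27.1 kb at 557597 to 584744, which 17 exceeded.

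Right behind the empty end lay one of the crowded stretches of the arm. The highest counts of the arm within 20 kb were 12 BioCyTASQ peaks from 69056 and 11 in vivo peaks from 59265. In the rest of Chr9 the highest counts within 20 kb were larger, 19 and 14. From 50 to 75 kb there were 9 BioCyTASQ in vitro peaks over 5.78 kb, 11 BioTASQ in vivo peaks over 5.29 kb and 0 BG4-or-BioTASQ peaks. It held the widest BioCyTASQ peak of the arm, 2590 bp at 62718 to 65307, with a fold enrichment of 10.7. This peak was overlapped by 2 in vivo peaks, the stronger at 6.63. From 75 to 100 kb there were 9 BioCyTASQ, 5 in vivo and 3 BG4-or-BioTASQ peaks. At 76684 to 77370 all 3 lists had a peak, with a fold enrichment of 7.76 for BioCyTASQ, 6.04 for BG4-or-BioTASQ and 8.78 for BioTASQ in vivo, which is the highest in vivo value of the arm.

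Control levels near the end were as follows. The level that the caller expected from the control was recovered from fold enrichment and p, in fragments at the summit. Across the peaks of the first 100 kb the median was 12.1 for BioCyTASQ in vitro and 16.4 for BioTASQ in vivo. From 50 to 75 kb alone it was 12.2 and 17.1, and from 75 to 100 kb 10.8 and 15.7. Over the whole short arm it was 12.8 (11.6 to 14.4) and 16.3 (16.1 to 16.7), and in the rest of Chr9 12.0 and 16.2. No level was below a floor of 8.14 for BioCyTASQ and 15.7 for BioTASQ in vivo. The in vivo floor was also the lower quartile in the short arm and in the rest of Chr9. The in vivo medians lie on or close to it, so their closeness says little of the control itself. These values describe called peaks only and say nothing of the 53.7 kb ahead of them.

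Along the arm, each list had its own profile over 9 windows of 0.2 Mb, counted from the free end. BioCyTASQ in vitro had 49, 43, 24, 38, 22, 20, 22, 50 and 33 peaks, against 27.0 ± 9.27 per window (SD) over 95 windows of the rest of Chr9, and 4 windows were above that mean by more than its SD. The BG4-or-BioTASQ list had 15, 24, 15, 26, 17, 22, 16, 34 and 21, against 15.6 ± 4.71, with 5 windows above by more than the SD. BioTASQ in vivo had 30, 28, 19, 32, 32, 23, 23, 31 and 32, against 31.7 ± 7.59, with 3 windows below by more than the SD and 0 above. The 4 BioCyTASQ windows above by more than the SD lay in the first 0.4 Mb, from 0.6 to 0.8 Mb and from 1.4 to 1.6 Mb. BioCyTASQ counts from 0.4 to 0.6 Mb and from 0.8 to 1.4 Mb were below the mean of the rest of the chromosome. The window from 1.6 to 1.8 Mb was above that mean by less than the SD. The window from 1.4 to 1.6 Mb had the most peaks in both in vitro lists and the most regions held by every list, 15 of 63. Window counts of different lists were weakly related in the arm (Spearman rho 0.33 for the in vitro lists, 0.30 for BioCyTASQ and BioTASQ in vivo, 0.42 for BG4-or-BioTASQ and BioTASQ in vivo, over 9 windows of one chromosome).

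**Figure D2:**
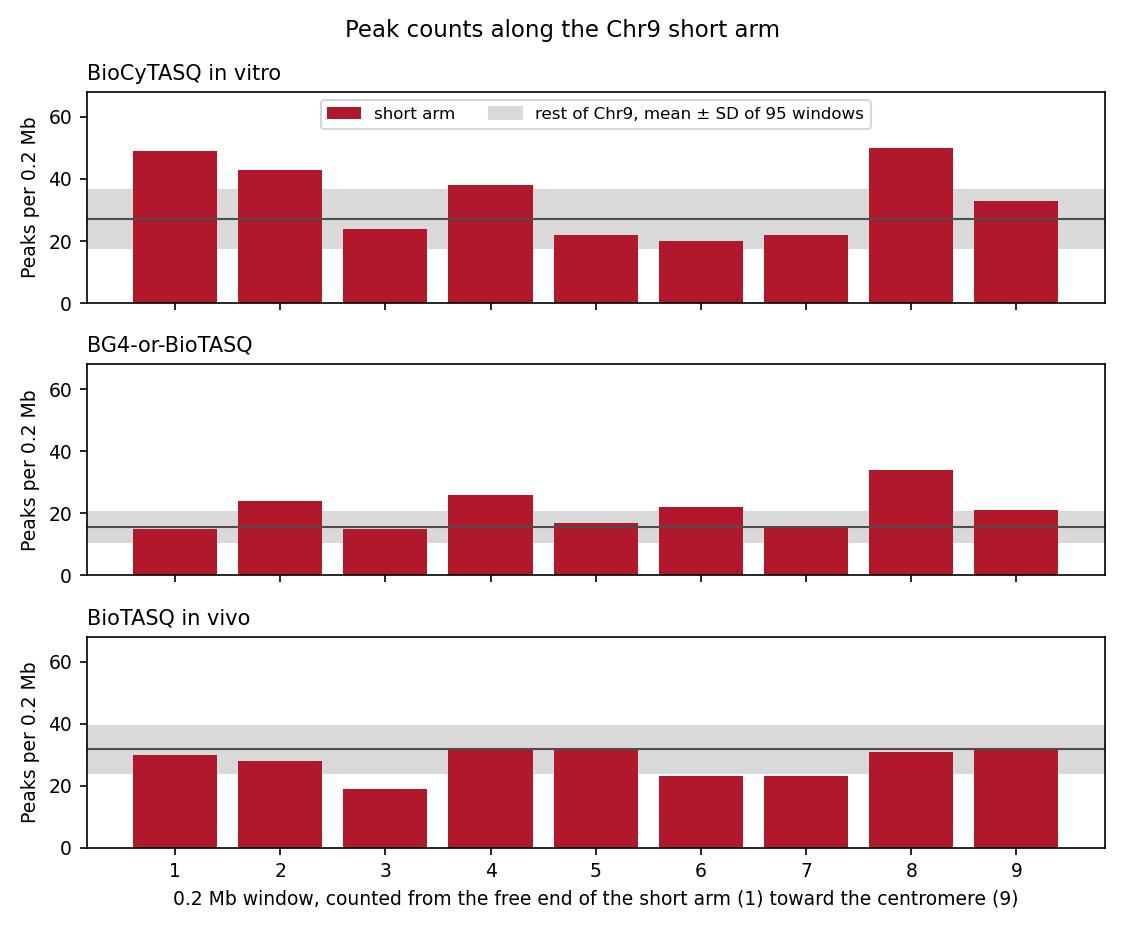
Peaks per 0.2 Mb (y axis) in the 9 windows of the Chr9 short arm from its free end (bars), for each list, with the mean ± SD of 95 windows in the rest of Chr9 (line and grey band). BioCyTASQ in vitro is above the band in 4 windows, BG4-or-BioTASQ in 5, and BioTASQ in vivo in none, being below it in 3.

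The share of peaks on another list was higher in the short arm than in the rest of Chr9 in 5 of 6 directions. An overlap of at least 1 bp was counted. Of the BioTASQ in vivo peaks in the short arm, 81 of 250 or 32.4% (26.6 to 38.6) lay on a BG4-or-BioTASQ peak, against 17.4% in the rest of Chr9 and 18.1% over the whole list. This was the highest ratio of the 6, 1.86. Of the BG4-or-BioTASQ peaks in the short arm, 113 of 190 or 59.5% (52.1 to 66.5) lay on a BioCyTASQ peak, against 42.9% in the rest of Chr9 and 42.1% over the whole list. In the other direction it was 102 of 301 BioCyTASQ peaks or 33.9% (28.6 to 39.5) in the short arm and 23.3% in the rest, with 23.2% over the whole list.

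Shares with the in vivo list went in different directions. Both directions of a pair of lists count the same overlaps, over the peaks of either list. For BioCyTASQ and BioTASQ in vivo these totals had short-arm to rest density ratios of 1.24 and 0.876. The part that this had in the shares was not tested. Of the in vivo peaks in the short arm, 167 of 250 or 66.8% (60.6 to 72.6) lay on a BioCyTASQ peak, against 54.2% in the rest of Chr9 and 55.9% over the whole list. Of the BG4-or-BioTASQ peaks, 89 of 190 or 46.8% (39.6 to 54.2) lay on an in vivo peak, against 36.1% in the rest and 36.6% over the whole list. Only for BioCyTASQ peaks on in vivo peaks was the share lower in the short arm, 161 of 301 or 53.5% (47.7 to 59.2), against 60.0% in the rest and 60.3% over the whole list. That interval stops just short of the share in the rest of Chr9, whose own interval, 58.1 to 61.9, it overlaps. The difference of −6.48 points became −3.14 (−8.04 to 1.68) with the arm cut at 2.5 Mb. With an overlap of at least 50% of both peaks the difference became −2.79 (−8.30 to 2.96). Both of these intervals include 0.

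Among the 189 windows of the other chromosomes, 1 had a higher share than the short arm for in vivo on BG4-or-BioTASQ peaks, 7 for BG4-or-BioTASQ on in vivo, 9 for BioCyTASQ on BG4-or-BioTASQ, 11 for in vivo on BioCyTASQ and 15 for BG4-or-BioTASQ on BioCyTASQ. For BioCyTASQ on in vivo peaks 166 had a higher share. Within the rest of Chr9, 1 of 10 windows was above the short arm for BG4-or-BioTASQ on BioCyTASQ peaks, at 66.7%, 8 for BioCyTASQ on in vivo, and 0 in the other 4 directions. The first 1.8 Mb of chromosome 4 was also above it for BG4-or-BioTASQ on BioCyTASQ peaks, at 62.9%.

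A denser partner list is met more often by any peak. The partner's covered length was higher in the short arm for both in vitro lists and lower for the in vivo list, as given above. The part that this had in the shares was not tested in any direction. When an overlap had to cover at least 50% of both peaks, the difference between the short arm and the rest shrank to 5.08 points for in vivo on BG4-or-BioTASQ peaks, 5.44 for BG4-or-BioTASQ on BioCyTASQ, and 4.04 for the reverse, with intervals above 0. For BG4-or-BioTASQ on in vivo peaks it was 2.60 (−2.03 to 8.39), an interval that includes 0. For in vivo on BioCyTASQ peaks it was 11.1 points.

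**Figure D3:**
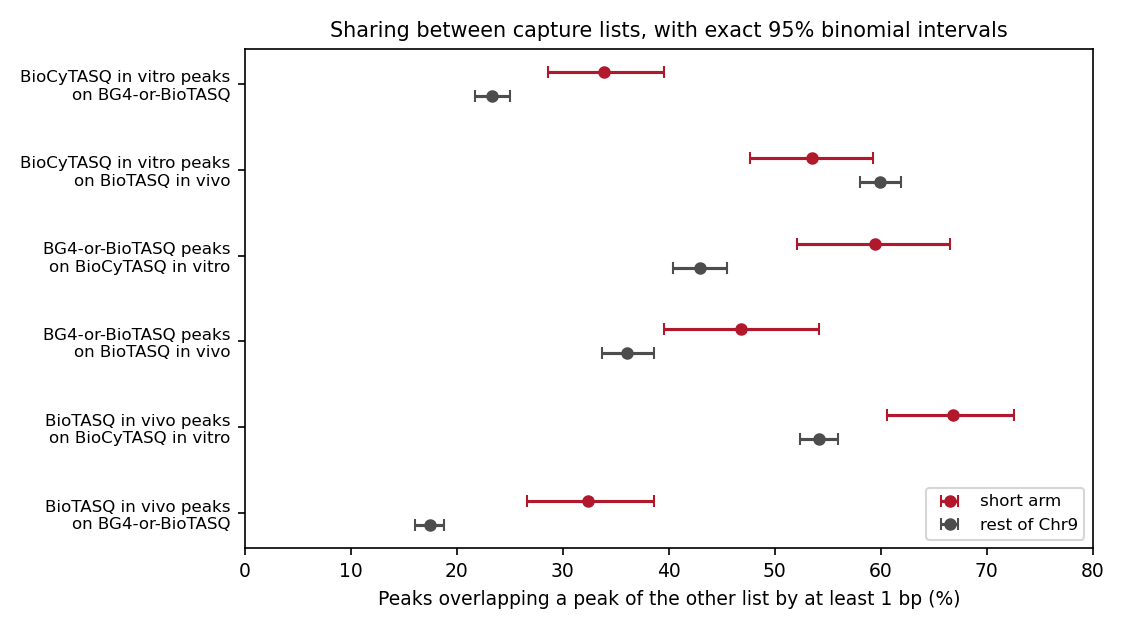
Share of peaks of a list that overlap a peak of another list (x axis, %), in the short arm and below it in the rest of Chr9, with exact 95% binomial intervals. The short arm is higher in every direction other than BioCyTASQ in vitro on BioTASQ in vivo, where it is 53.5% against 60.0%.

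Merging the peaks of all lists gave 434 regions in the short arm and 4626 in the rest of Chr9. Regions with a peak of every list were 69 in the short arm (15.9%, 12.6 to 19.7) and 406 in the rest (8.78%), with 9.07% over all chromosomes. Per Mb they numbered 38.3 in the short arm and 21.1 in the rest. Regions of both in vitro lists without the in vivo list were 8.53% in the short arm and 4.65% in the rest (4.45% over all chromosomes). Regions of BioCyTASQ and BioTASQ in vivo without the BG4-or-BioTASQ list were 91 or 21.0% in the short arm and 24.4% in the rest (24.6% over all chromosomes). Regions of BG4-or-BioTASQ and in vivo peaks alone were 19 or 4.38% in the short arm and 3.50% in the rest (3.61% over all chromosomes). The BG4-or-BioTASQ list alone held 51 or 11.8% in the short arm and 14.4% in the rest (15.1% over all chromosomes). Regions of BioTASQ in vivo alone were 64 or 14.7% (11.5 to 18.4) in the short arm, against 1226 or 26.5% in the rest and 25.2% over all chromosomes. In the short arm BioCyTASQ alone held the most regions, 103 or 23.7%, against 17.7% in the rest (18.0% over all chromosomes). In the rest of Chr9 the most frequent kind was the in vivo list alone. The short arm therefore had fewer regions seen only in vivo, 35.6 per Mb against 63.9 per Mb in the rest, and more seen in both in vitro lists.

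**Figure D4:**
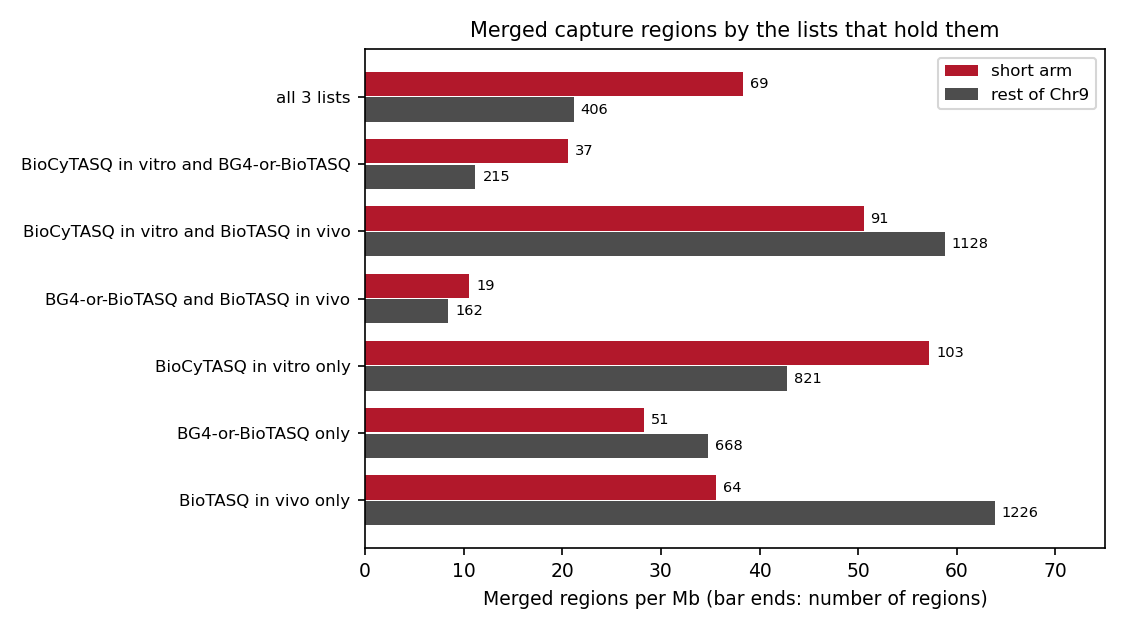
Merged regions per Mb (x axis) by the lists that hold a peak in them, in the short arm (upper bar of each pair) and in the rest of Chr9 (lower bar), with the number of regions at the bar end. Regions of all lists stand at 38.3 per Mb in the short arm and 21.1 in the rest, and regions of BioTASQ in vivo alone at 35.6 and 63.9.

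Regions held by every list were 221 to 1794 bp long in the short arm, with a median of 766 bp. The strongest 5 by rank of fold enrichment in all lists, at most 1 per 20 kb, began with the one at 76684 already described. The region at 640500 to 641878 had a fold enrichment of 5.66 for BioCyTASQ, 6.65 for BG4-or-BioTASQ and 6.65 for BioTASQ in vivo. The one at 323294 to 324485 had 4.98, 7.44 and 6.57 in the same order, the one at 433363 to 434453 had 5.34, 5.34 and 5.98, and the one at 378036 to 379143 had 4.85, 5.43 and 6.39. All 5 lay in the outer 0.8 Mb of the arm, and none in the window from 1.4 to 1.6 Mb where regions of all lists were most numerous. The windows of the outer 0.8 Mb held 4, 8, 5 and 8 of the 69 regions, and that window 15. A choice of 5 regions is too small to compare places in the arm.

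The peaks that were strongest in 1 list differed between lists. The strongest BioCyTASQ in vitro peaks were at 1768788 to 1769238, 982610 to 983952, 180302 to 180664, 599070 to 599957 and 1231479 to 1232402, with fold enrichments of 12.7, 12.4, 11.5, 11.1 and 10.7. The in vivo list had a peak at 4 of these 5, with 5.07 to 6.56, and none at 180302, while the BG4-or-BioTASQ list had a peak at 0. Over the whole BioCyTASQ list these shares were 60.3% and 23.2%, and 5 peaks are too few to be set against them. The strongest BG4-or-BioTASQ peaks had 13.7 at 496873 to 497377, 10.8 at 1462137 to 1462503, 10.3 at 1558570 to 1559460, 9.94 at 270153 to 270540 and 8.84 at 233862 to 234306. Of these, 4 lay on an in vivo peak and 1, at 1558570, on a BioCyTASQ peak, whose fold enrichment was 3.47. Over the whole BG4-or-BioTASQ list these shares were 36.6% and 42.1%.

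The strongest BioTASQ in vivo peaks had 8.78 at 76761 to 77367, 8.24 at 1146563 to 1147920, 7.28 at 1503943 to 1505234, 7.25 at 967226 to 967916 and 7.24 at 872334 to 872722. BioCyTASQ had a peak at 4 of them, with 4.98 to 7.76 and none at 1503943, and the BG4-or-BioTASQ list at 4, with 4.25 to 6.04 and none at 967226. Over the whole in vivo list these shares were 55.9% and 18.1%. The control behind each list is not stated, so fold enrichments of different lists are not set against each other. The widest in vivo peak was 2200 bp, at 907079 to 909278, and the widest BG4-or-BioTASQ peak 928 bp, at 1522693 to 1523620.

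The median BioCyTASQ peak of the short arm was somewhat weaker than that of the rest of Chr9. Fold enrichment ran from 1.59 to 12.7 with a median of 3.55 (3.37 to 3.81), against 3.83 (3.73 to 3.94) in the rest of Chr9. These intervals overlap. The difference of −0.28 (−0.46 to −0.02) became −0.25 (−0.45 to 0.11) with the arm cut at 1.5 Mb and −0.22 (−0.42 to 0.01) at 2.5 Mb, intervals that include 0. Of the 301, 40 or 13.3% were among the 20% of the list with the highest fold enrichment, against 19.2% in the rest of Chr9. Only 2 of 301 (0.664%) were 1500 bp or longer, against 80 of 2593 (3.09%) in the rest and 3.52% over the whole list. For BioTASQ in vivo it was 2 of 250 (0.80%) in the short arm, 0.920% in the rest and 0.917% over the whole list. The BioCyTASQ median width was still 420 bp in the short arm and 405 bp in the rest. The first 1.8 Mb of all other 11 chromosomes had a higher median fold enrichment than the short arm, as did 8 of the 10 windows in the rest of Chr9.

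Strength in the other lists was close to that of the rest of Chr9. The median fold enrichment was 4.78 (4.56 to 5.04) for BG4-or-BioTASQ peaks in the short arm and 4.74 in the rest. For BioTASQ in vivo peaks it was 4.33 (4.21 to 4.54) in the short arm and 4.36 in the rest. The top 20% of each list by fold enrichment held 21.1% of the BG4-or-BioTASQ and 20.8% of the in vivo peaks of the short arm, against 19.7% and 18.4% in the rest. Of the distances between neighbouring in vivo rows, 15.3% were under 1 kb in the arm, against 22.4% in the rest. For BioCyTASQ it was 31.0% and 28.2%. Some in vivo rows shared a called number with another row, 29 of 250 in the arm and 433 of 3044 in the rest. The in vivo list was also sparser in the arm. The part of either in the distances was not tested.

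Within the arm, BioCyTASQ peaks inside and outside the other lists had different properties. The 161 on an in vivo peak had a median fold enrichment of 4.16, a width of 507 bp and a control level of 18.8 fragments. The 140 outside the in vivo list had 3.18, 340 bp and 9.98 fragments. The 102 on a BG4-or-BioTASQ peak had a lower median fold enrichment than the 199 outside it, 3.31 and 3.78, and a higher control level, 23.2 and 10.8 fragments. The same split was present in the rest of Chr9, where the control level was 20.8 fragments on and 10.8 outside BG4-or-BioTASQ peaks. The BioCyTASQ peaks of the arm with the highest control levels, 83.8 at 1617073 to 1617298, 56.3 at 1033572 to 1034127 and 52.7 at 1746048 to 1746371, had fold enrichments of 1.59, 2.25 and 2.35, and at all 3 both other lists had a peak. Of the 3 in vivo peaks with the highest control levels, 33.1 at 1021780 to 1021999, 29.3 at 1555327 to 1556057 and 23.9 at 586172 to 586546, 1 lay on a BioCyTASQ peak and 0 on a BG4-or-BioTASQ peak. Of the 3 BG4-or-BioTASQ peaks chosen in the same way, 3 lay on an in vivo peak and 1 on a BioCyTASQ peak, but whole pileups were recovered for only 0.333% of that list, so this choice of peaks is uncertain. Over the whole BioCyTASQ list 60.3% of peaks lay on an in vivo peak and 23.2% on a BG4-or-BioTASQ peak. In the in vivo list 55.9% lay on BioCyTASQ and 18.1% on BG4-or-BioTASQ peaks. In the BG4-or-BioTASQ list 36.6% lay on in vivo and 42.1% on BioCyTASQ peaks. Choices of 3 peaks are too few to be set against these shares.

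In vivo peaks had a higher median fold enrichment where they lay on another list. The summit lay beyond the row end in 22.4% of short-arm in vivo rows and 22.7% of those in the rest of Chr9. For these rows fold enrichment and control level belong to a place outside the row. The median fold enrichment was 4.72 for the 167 on a BioCyTASQ peak and 3.78 for the 83 outside, with control levels of 16.1 and 17.1 fragments, close to the floor of 15.7. In the rest of Chr9 the same split was present, with median fold enrichments of 4.72 and 3.99. Fold enrichments of 168 overlapping BioCyTASQ and in vivo pairs in the arm rose weakly together (Spearman rho 0.33), and those of 113 BioCyTASQ and BG4-or-BioTASQ pairs hardly did (0.09). In the rest of Chr9 rho was 0.30 and 0.04. Pairs share a place and a chromosome and are not independent, so these are descriptions. Of the 140 BioCyTASQ peaks outside the in vivo list, 15 (10.7%) had an in vivo peak within 500 bp, and the median distance to the nearest was 1556 bp. In the rest of Chr9 these values were 13.1% and 1493 bp.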

How the data were processed

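The submitters' processing notes name MACS2 2.1.1, SAMtools 1.5, Picard, BWA and Trim Galore 0.4.4, without role or order. Genome build, controls, thresholds and whether replicates were pooled are not stated there. The deposited lists have 10 columns and no header, in MACS2 narrow-peak order. The deposited score was the whole part of 10 times −log10 q in nearly all rows. The deposited fold enrichment, a ratio to the control, and the deposited −log10 p and −log10 q were used as the authors gave them. In the authors' deposited table the lowest −log10 q was 1.31 for BioCyTASQ in vitro, 3.0 for BG4-or-BioTASQ and 3.01 for BioTASQ in vivo. The deposited summit offset is another column, and 22.4% of short-arm in vivo rows had a summit beyond the row end, against 2.33% for BioCyTASQ, so rows had been cut after calling.

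Repeated rows (26, of which 1 was on Chr9) were dropped. Fold enrichment and −log10 p were solved for pileup and control level under Poisson tails. Whole pileups came out (within 0.001) for 100% of BioCyTASQ and in vivo rows. Only 0.333% did for BG4-or-BioTASQ, whose control levels are therefore not given. The length of Chr9 was taken as its last peak end. Intervals of shares are Clopper-Pearson, and those of medians come from order statistics. For ratios of covered length, the interval of the count ratio was scaled to the ratio, so peak widths do not enter it. The overlap and recovery steps were tested on simulated data. Named regions were the 5 strongest of each list and of those in every list, the widest, the 3 with the highest control level and the 3 longest empty stretches. The members and lists were chosen with earlier results of these data known. Python 3.11.15, SciPy 1.17.1, NumPy 2.4.6, Matplotlib 3.10.9 and pandas 2.3.3 were used.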

Additional observations from a re-analysis of the deposited data

Results flagged for a closer look

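Peak density in the short arm relative to the rest of Chr9 went in opposite directions between lists, which is why it is named here. BioCyTASQ in vitro had a ratio of 1.24 and the BG4-or-BioTASQ list one of 1.35, whereas BioTASQ in vivo had 0.876. The difference between the lists was not tested, since each capture had 1 list. Bait, condition and the number of called peaks taken out of each list differ together, so their parts in it cannot be told apart. With the called numbers that were taken out counted as well, the ratios were 1.23, 1.35 and 0.814.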

How the results depend on the processing

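Of 143 values under alternatives, 138 stayed within the counting interval of the value reported and 0 of those with an interval away from no difference changed direction. The other 5 were the density ratio of BioCyTASQ in vitro against the first 1.8 Mb of the other 11 chromosomes, 1.49, and, with an overlap of at least 50% of both peaks, the short-arm minus rest differences in shared peaks of 5.44 points (BG4-or-BioTASQ on BioCyTASQ), 2.60 (BG4-or-BioTASQ on BioTASQ in vivo), 4.04 (BioCyTASQ on BG4-or-BioTASQ) and 5.08 (BioTASQ in vivo on BG4-or-BioTASQ); the cause was not tested. The in vivo density ratio was 0.889 (0.775 to 1.02) over distinct called peaks, 0.958 (0.839 to 1.09) against the other chromosome ends, and 0.949 (0.85 to 1.06) with the arm cut at 2.5 Mb, intervals that include 1. The ratio of in vivo covered length at 2.5 Mb was 0.964. Its range of 0.864 to 1.07 is only the interval of the count ratio scaled to it. Intervals came to include 0 for BG4-or-BioTASQ on in vivo peaks at 50% of both peaks (−2.03 to 8.39), for BioCyTASQ on in vivo peaks at the same setting, −2.79, and at 2.5 Mb, −3.14 points, and for the BioCyTASQ median fold difference at 1.5 Mb, −0.25, and 2.5 Mb, −0.22. A common lowest −log10 q and the counts of called numbers were chosen after seeing the data. Alternatives were not run for the control levels of the BG4-or-BioTASQ list. No paired analysis was possible because each capture has 1 list and none per replicate, and leaving out a replicate was impossible for the same reason.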
